A study of Mus musculus with 17 samples.

Results

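GABA, the main inhibitory transmitter of the adult brain, acts in the hippocampus through GABA-A receptors, which are chloride channels of 5 subunits, and through GABA-B receptors, which couple to G proteins. Receptors with an alpha5 or a delta subunit lie largely outside synapses and carry a slow, tonic inhibition, whereas those clustered by gephyrin and neuroligin 2 mediate fast synaptic inhibition. Interneurons make GABA with glutamate decarboxylase and load it into vesicles, astrocytes and neurons take it up, and a transaminase and a dehydrogenase break it down. Pentylenetetrazole (PTZ), an antagonist of the GABA-A channel, provokes convulsions, and kindling is a protocol in which repeated doses that do not at first cause convulsions come to evoke seizures.

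The genes described here were 28 genes of GABA receptors, synthesis, transport and scaffold, found by mapping the Ensembl identifiers of the count table to their symbols. All 28 were found among 55471 genes in the table, 39260 of which had at least 1 count. They were 4 alpha, 2 beta and 2 gamma subunits and the delta subunit of the GABA-A receptor, both GABA-B subunits, 3 genes of synthesis and vesicle loading, 2 transporters of the plasma membrane, 2 enzymes of breakdown, 3 scaffold or auxiliary genes of the inhibitory synapse, 3 genes of the GABARAP family, 2 genes of the PRIP family and 2 TRAK adaptors. A separate list of 34 partner genes, rare GABA-A and rho subunits among them, is described after the members. Every member had an adjusted p in every comparison, so no filter on low values removed any of them.

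Total RNA of the hippocampus was sequenced in 17 libraries from mice aged 3 to 6 months, C57BL/6 in the labels and C57BL/6J in the study's methods. CBP-ifKO mice carry a floxed Crebbp and a tamoxifen-dependent Cre (creERT2) under the Camk2a promoter, which acts in excitatory neurons of the forebrain, so that CBP, a lysine acetyltransferase, is lost from those neurons in the adult and kept in interneurons and glia. Controls were littermates without the Cre, according to the study's methods, although the labels name Camk2a_creERT2 for them as well, and both genotypes received tamoxifen. Kindling consisted of 45 mg/kg PTZ on alternate days. A week after it ended, PTZ0 mice were given saline and PTZ45 mice another 45 mg/kg of PTZ, while Sal mice were not kindled and were given saline on that day. Tissue was collected 45 min later. The paper reports that all controls came to have seizures at the kindling doses, whereas none of the CBP-ifKOs reached progressive seizures. Kindled and kindling therefore name the doses given here, not a seizure state shared by the genotypes. There were 6 groups, of which Control PTZ45 had 2 libraries and the other 5 had 3 each. The design asks separately what kindling, the last PTZ injection and the loss of CBP do to these transcripts.

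The libraries held 5831992 to 18735643 counts, the lowest in CBP-ifKO Sal replicate 2, and the 28 members took 0.406% to 0.444% of them. For the targeted gene Crebbp, controls had 2169 ± 201 normalised counts (SD, n = 8), CBP-ifKOs had 1214 ± 95 (SD, n = 9) and no libraries overlapped. A normalised count is a read count divided by the size factor of its library. The 45-min response to PTZ was present in both genotypes, since Fos, an immediate early gene, rose 102-fold in controls between PTZ0 and PTZ45 (log2 fold change 6.68, SE 0.19, DESeq2 adjusted p = 9.72e-276) and 16.3-fold in CBP-ifKOs (4.03, SE 0.30, DESeq2 adjusted p = 1.03e-36). The sequencing lane in the labels was tied to the groups. Lane 3 held Control Sal and Control PTZ0, lane 4 held Control PTZ45 and CBP-ifKO Sal, and lane 5 held CBP-ifKO PTZ0 and CBP-ifKO PTZ45. No comparison of genotypes lies within a lane, so lane and genotype cannot be told apart in the pairwise comparisons.

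**Figure D1:**
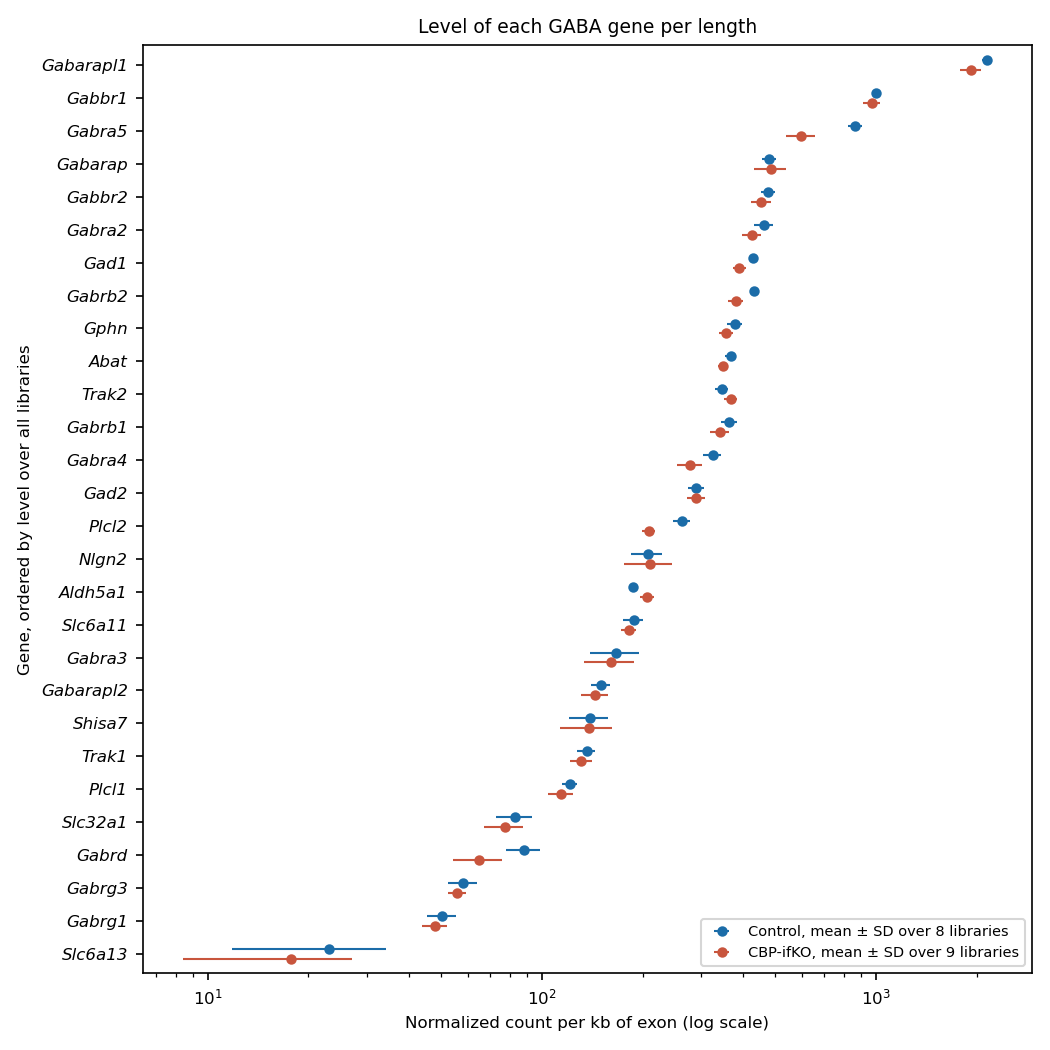
Mean level of each of the 28 genes in normalised counts per kb of exon (log scale) for the 8 Control and 9 CBP-ifKO libraries, with bars of 1 SD. Gabarapl1 lies highest and Slc6a13 lowest in both genotypes, and Gabra5 shows the widest gap between genotypes among the genes of high level.

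Per length of exon, the members differed widely. In controls Gabarapl1, a ubiquitin-like protein of autophagy and receptor trafficking, had the highest level, at 2146 ± 71.3 normalised counts per kb (SD, n = 8). Gabbr1, the ligand-binding subunit of the GABA-B receptor, followed at 1001 ± 17.2, and Gabra5 came next at 866 ± 39.3, above the other alpha subunits measured, Gabra2 (461 ± 30), Gabra4 (324 ± 20.5) and Gabra3 (167 ± 28.2). The levels of Gabarap (478 ± 22.5), Gabbr2 (475 ± 22) and Gabra2 lay within their spread of each other. Slc6a13, the GABA transporter GAT2, which is known mainly from meninges and periphery, was lowest at 23 ± 11.2 normalised counts per kb, below the gamma1 subunit Gabrg1 at 50.3 ± 4.96 and the gamma3 subunit Gabrg3 at 58.0 ± 5.86.

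The spread between libraries differed widely among members. Over the 8 control libraries, which span 3 treatments, the coefficient of variation was 1.72% for Gabbr1 and 1.74% for Gad1, against 16.9% for Gabra3 and 48.8% for Slc6a13. Normalised counts of Slc6a13 ran from 34.5 to 121 in controls and from 23.1 to 93.0 in CBP-ifKOs, with high and low libraries in both genotypes. Summed markers of meningeal fibroblasts ran from 1063 to 1695 normalised counts in controls and from 477 to 1512 in CBP-ifKOs, and summed markers of choroid plexus from 509 to 25250 and from 480 to 45607. None of these markers was at 0 in a whole group, and their part in the values of Slc6a13 was not tested.

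**Figure D2:**
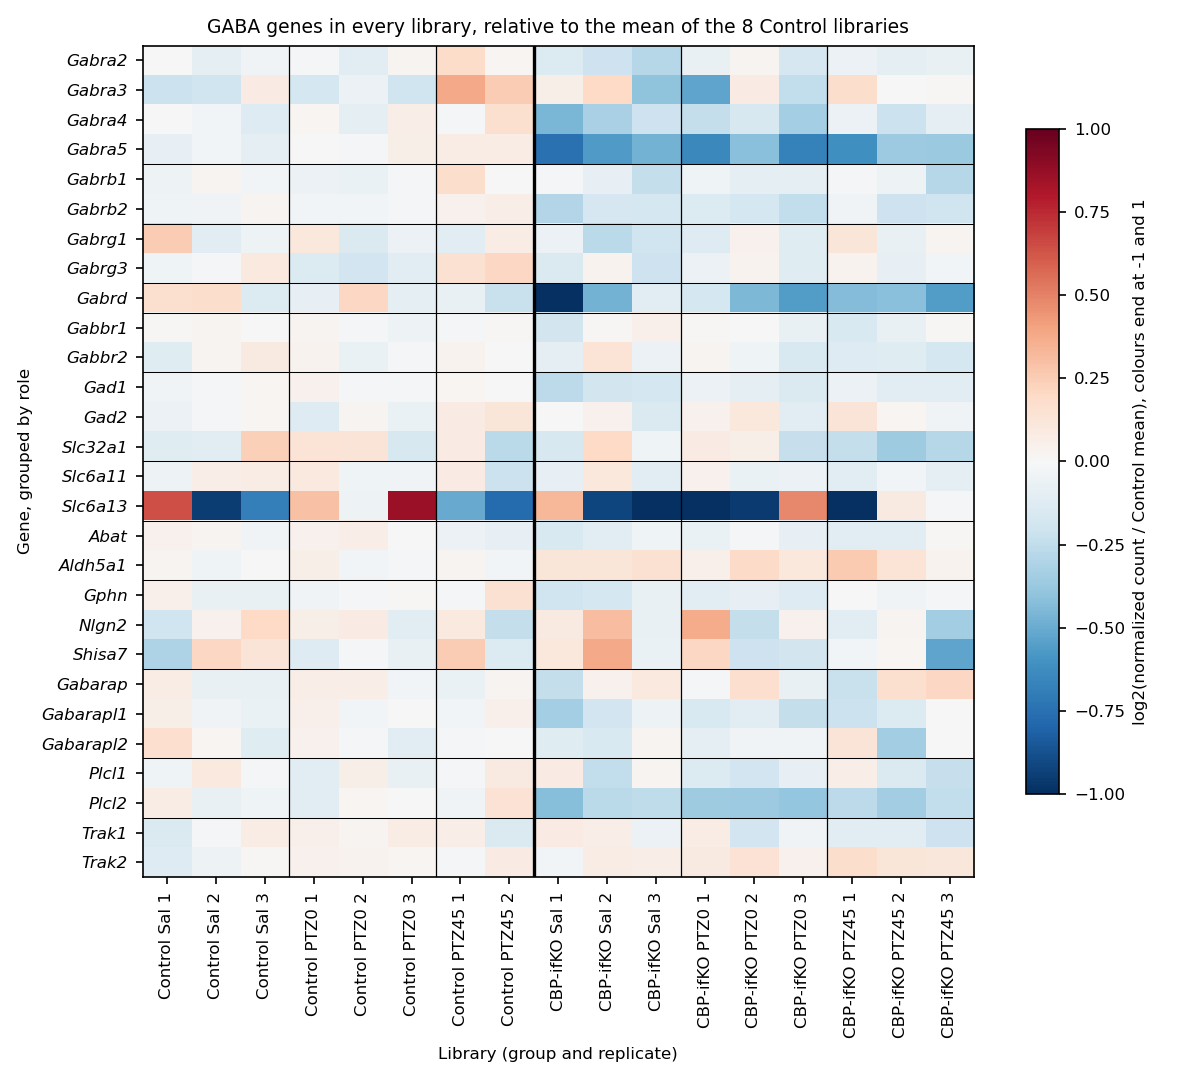
Each of the 28 genes (rows, grouped by role) in each of the 17 libraries (columns), as the log2 ratio of the normalised count to the mean of the 8 Control libraries, with colours that end at -1 and 1. Gabra5 and Plcl2 are below the control mean in all 9 CBP-ifKO libraries, and Slc6a13 varies within every group.

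The loss of CBP went with lower levels of several GABA-A receptor subunits. Over all 3 treatments, with treatment as a term, 11 of the 28 members differed between genotypes at an adjusted p under 0.05 in DESeq2, 2 higher and 9 lower in CBP-ifKOs. Of 18682 genes tested, 19.3% were called, 7.76% higher and 11.5% lower. The median log2 fold change of the members was -0.07, beside 0.01 over all genes tested, and 23 of the 28 had a value below 0. The libraries of the genotypes did not overlap for 3 members, all lower, namely Gabra5, Plcl2 and Gad1, beside 2.16% of all genes tested. By the same measure 0 members were higher, beside 0.83% of all genes tested. Bulk RNA was measured, so fewer cells of a type and less RNA per cell cannot be told apart.

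Within single treatments the calls were fewer and all lower. In Sal 2 of the 28 members were called, Gabra5 and Plcl2, beside 2.04% of 15004 genes tested in either direction and 1.77% lower. In PTZ0 4 were called, Gabra5, Plcl2, Gabra4 and Gabarapl1, beside 6.68% of 12752 genes in either direction and 5.25% lower. In PTZ45 the 2 called were again Gabra5 and Plcl2, beside 3.07% of 15224 genes in either direction and 2.82% lower.

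Of the 4 alpha subunits, 3 were lower in CBP-ifKOs. Gabra5 (ENSMUSG00000055078, chr7:57407672-57510059 on the minus strand in GRCm38) encodes alpha5, a subunit enriched in hippocampal pyramidal cells. Its normalised counts were 2428, 2519 and 2423 in Control Sal, 2564, 2560 and 2679 in Control PTZ0, and 2710 and 2710 in Control PTZ45. They were 1532, 1737 and 1853 in CBP-ifKO Sal, 1651, 1922 and 1612 in CBP-ifKO PTZ0, and 1679, 2006 and 1988 in CBP-ifKO PTZ45. The lowest control library lay above the highest CBP-ifKO library in every treatment and over all of them. The difference was -0.55 on the log2 scale (SE 0.05, 95% interval -0.64 to -0.45, DESeq2 adjusted p = 1.03e-27), or 0.684 of the control level. Within each treatment it was of similar size, with -0.53 in Sal (SE 0.09, DESeq2 adjusted p = 1.17e-06), -0.59 in PTZ0 (SE 0.07, adjusted p = 1.03e-12) and -0.52 in PTZ45 (SE 0.10, adjusted p = 2.84e-05).

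Gabra5 also made up a smaller part of the alpha subunits measured. As a share of the summed levels per kb of the 4 alpha members, which needs no scaling between libraries, it was 46.2% to 49.2% in the control libraries (median 47.5%) and 37.5% to 44.2% in the CBP-ifKO libraries (median 40.8%), with no overlap. This share was chosen after the values of Gabra5 were seen and was not tested. An antisense gene, Gm9962, shares 148 exon bases with Gabra5, and its 277 counts over all libraries are few beside the 37760 of Gabra5. The 250 bases upstream of the RefSeq start sites of 3 alpha subunits are shown. They set the promoter of Gabra5, the member with the largest fall over all treatments without lane as a term, beside those of 2 relatives. That of Gabarapl2, which did not pass the test, shows a match to the motif searched. The sequences are from RefSeq (GRCm38.p6), 5′ to 3′, with matches to TGACG or its reverse complement CGTCA in capitals, the core motif bound by CREB, through which CBP is recruited.
Gabra5, chr7:57510060-57510309, minus strand: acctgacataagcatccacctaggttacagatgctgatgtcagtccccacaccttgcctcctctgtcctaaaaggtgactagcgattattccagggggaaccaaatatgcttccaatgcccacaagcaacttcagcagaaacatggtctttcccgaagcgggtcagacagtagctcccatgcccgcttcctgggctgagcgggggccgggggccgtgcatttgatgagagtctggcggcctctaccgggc
Gabra3, chrX:72656920-72657169, minus strand: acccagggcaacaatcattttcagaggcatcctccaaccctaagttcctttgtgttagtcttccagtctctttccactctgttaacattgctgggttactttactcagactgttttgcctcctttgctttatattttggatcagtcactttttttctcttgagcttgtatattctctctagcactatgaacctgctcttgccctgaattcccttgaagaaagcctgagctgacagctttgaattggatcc
Gabra2, chr5:71095850-71096099, minus strand: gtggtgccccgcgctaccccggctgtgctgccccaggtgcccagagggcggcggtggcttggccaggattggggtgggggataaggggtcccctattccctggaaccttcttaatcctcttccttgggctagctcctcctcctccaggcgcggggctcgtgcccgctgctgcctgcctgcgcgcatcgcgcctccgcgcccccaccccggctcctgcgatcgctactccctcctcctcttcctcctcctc
Gabarapl2, chr8:111940453-111940702, plus strand: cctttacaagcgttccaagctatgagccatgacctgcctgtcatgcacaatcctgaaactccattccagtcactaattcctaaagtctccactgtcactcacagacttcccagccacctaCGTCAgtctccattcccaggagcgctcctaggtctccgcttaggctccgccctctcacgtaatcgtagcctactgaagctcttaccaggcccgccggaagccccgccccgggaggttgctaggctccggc

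The upstream bases of the 3 alpha subunits hold no such match, and those of Gabarapl2 hold 1, which starts 130 bases before the start site. RefSeq windows of 300 bases (250 before to 50 after a start site) were held for 25 of the 28 members. The entries of Abat, Plcl2 and Gabrd are named only. On either strand the core motif occurred in 6 of the 25 members (24%), Trak1, Gad2, Gabarapl2, Gabrb2, Nlgn2 and Aldh5a1, and in 23% of 27025 genes with a window. The full palindrome TGACGTCA, which contains the core motif, occurred in 1 of the 25 members, Trak1, 57 bases before a start site, and in 2.03% of all genes. These matches are descriptions of letters in a window. Neither was found in a window of Gabra5, Gabra4 or Gad1.

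Gabra4 encodes alpha4, the usual partner of delta in dentate granule cells. Its normalised counts were 1976, 1933 and 1807 in Control Sal, 2004, 1846 and 2071 in Control PTZ0 and 1947 and 2201 in Control PTZ45, against 1441, 1573 and 1713, 1676, 1764 and 1557, and 1894, 1701 and 1846 in the same treatments of CBP-ifKOs. The genotypes did not overlap within any treatment but did across treatments. With so few libraries a group, lack of overlap within a single treatment is weak evidence, here and for other members. The difference over all treatments was -0.24 (log2, SE 0.05, DESeq2 adjusted p = 3.25e-06). Within treatments it was called in PTZ0 only (-0.25, SE 0.07, DESeq2 adjusted p = 0.0172), and this call was lost without Control PTZ0 replicate 1 (adjusted p = 0.18), Control PTZ0 replicate 3 (0.238) or CBP-ifKO PTZ0 replicate 3 (0.239). In Sal it was -0.28 (DESeq2 adjusted p = 0.0861), and was called without CBP-ifKO Sal replicate 3 (-0.35, adjusted p = 0.00596) and in 1 fit of all libraries (adjusted p = 0.0201). Gabra4 and Gabrb1 lie head to head on opposite strands and share 46 exon bases, and the strand setting of the counting is not given in the sources used here.

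Gabra2, whose alpha2 subunit is found at synapses of pyramidal cells, ran from 3253 to 4003 normalised counts in controls (median 3506) and from 2881 to 3596 in CBP-ifKOs (median 3292). The genotypes overlapped, and the difference was -0.13 (log2, SE 0.04, DESeq2 adjusted p = 0.0132), or 0.0574 without Control PTZ45 replicate 1. For Gabra3, the alpha3 subunit, the ranges were 562 to 851 in controls and 454 to 749 in CBP-ifKOs, and the difference of -0.07 (95% interval -0.24 to 0.10) did not pass the test (adjusted p = 0.623).

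Among the other GABA-A subunits, Gabrd fell next to Gabra5 in size over all treatments. Its fall exceeded that of Gabra5 in Sal (log2 -0.57) and with lane as a term (-0.48). Gabrd encodes delta, which forms extrasynaptic receptors of high affinity, on dentate granule cells above all. Its normalised counts were 285, 288 and 231 in Control Sal, 240, 294 and 238 in Control PTZ0 and 241 and 218 in Control PTZ45, and 127, 183 and 235, 225, 186 and 173, and 188, 190 and 173 in CBP-ifKOs. CBP-ifKO Sal replicate 3 and CBP-ifKO PTZ0 replicate 1 reached the control range, and the other 7 CBP-ifKO libraries lay below it. The difference was -0.44 (log2, SE 0.10, DESeq2 adjusted p = 2.61e-04), and it was not called in any single treatment (adjusted p = 0.121 in Sal, 0.0804 in PTZ0 and 0.525 in PTZ45). In 1 fit of all libraries it was called in Sal (-0.56, adjusted p = 0.0347). Without CBP-ifKO Sal replicate 3 the difference in Sal was -0.84 (adjusted p = 0.00185), and without CBP-ifKO PTZ0 replicate 1 that in PTZ0 was -0.52 (adjusted p = 0.0386).

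Gabrb2, the beta2 subunit of common synaptic receptors, ran from 2666 to 2876 normalised counts in controls (median 2705) and from 2239 to 2685 in CBP-ifKOs (median 2423). The highest CBP-ifKO library, PTZ45 replicate 1, lay within the control range, and within each treatment the genotypes did not overlap. The difference was -0.19 (log2, SE 0.03, DESeq2 adjusted p = 2.54e-07). Gabrb1, the beta1 subunit, had a difference of -0.10 (SE 0.04, adjusted p = 0.0969), which passed without CBP-ifKO Sal replicate 1 (-0.12, adjusted p = 0.045) and with a GC correction (-0.12, adjusted p = 0.00966). The gamma subunits Gabrg1 and Gabrg3 had differences of -0.07 (95% interval -0.21 to 0.06) and -0.07 (95% interval -0.17 to 0.03), and neither passed the test.

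The metabotropic receptor did not pass the test in either subunit. Controls had 7768 ± 134 normalised counts of Gabbr1 (SD, n = 8) and CBP-ifKOs 7541 ± 420 (SD, n = 9), a difference of -0.04 on the log2 scale (95% interval -0.11 to 0.03, DESeq2 adjusted p = 0.447). Gabbr2, which couples the receptor to its G protein, had a difference of -0.06 (95% interval -0.15 to 0.02, adjusted p = 0.334).

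**Figure D3:**
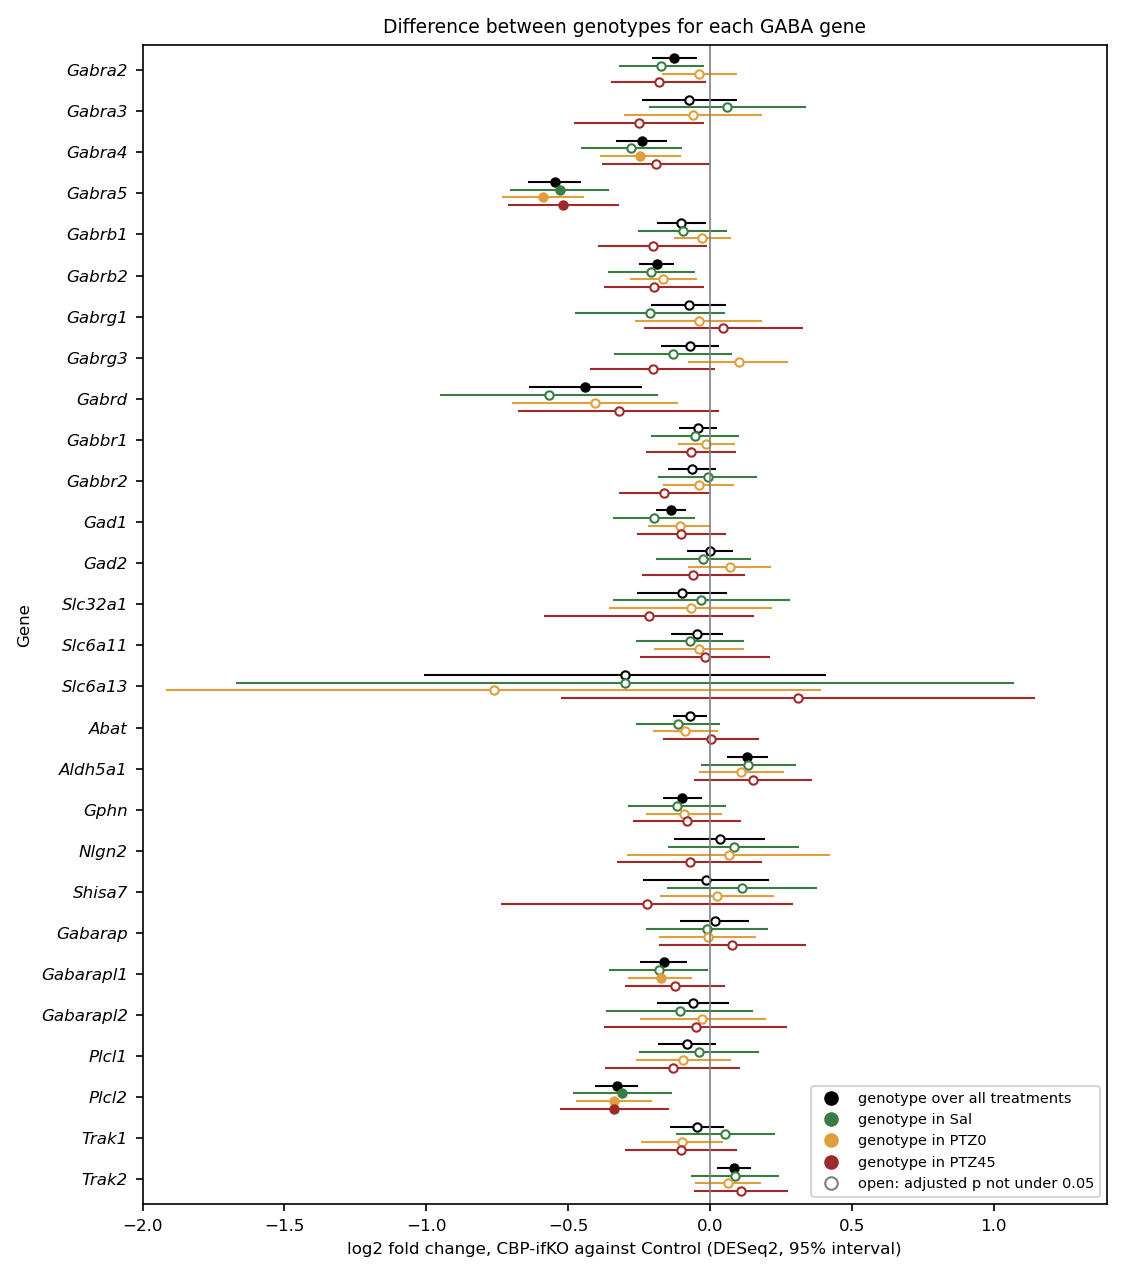
Log2 fold change of each of the 28 genes between CBP-ifKO and Control, over all treatments (black) and within Sal, PTZ0 and PTZ45, from DESeq2 with 95% intervals. Filled points have an adjusted p under 0.05, and Gabra5 and Plcl2 are filled in all 4 comparisons.

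The genes of GABA synthesis differed in their values. Gad1 encodes GAD67, the decarboxylase that makes most of the cellular GABA of interneurons, where the Camk2a promoter is not active. Its normalised counts were 3184, 3211 and 3301 in Control Sal, 3358, 3239 and 3231 in Control PTZ0, and 3299 and 3271 in Control PTZ45. They were 2721, 2872 and 2895 in CBP-ifKO Sal, 3128, 3052 and 2955 in CBP-ifKO PTZ0, and 3127, 3017 and 3034 in CBP-ifKO PTZ45. Every CBP-ifKO library was below every control library. The difference was small, -0.14 (log2, SE 0.03, DESeq2 adjusted p = 1.11e-05), and was not called within a single treatment (adjusted p = 0.181 in Sal, 0.317 in PTZ0 and 0.763 in PTZ45), although 1 fit of all libraries called it in Sal (-0.19, adjusted p = 0.00495).

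Gad2, which encodes GAD65, the decarboxylase of synaptic terminals, stood at 1695 ± 96.1 normalised counts in controls (SD, n = 8), and CBP-ifKOs had 1705 ± 105 (SD, n = 9). Its difference was 0.00 (log2, 95% interval -0.08 to 0.08, DESeq2 adjusted p = 0.999). The number of Gad1 counts per Gad2 count, a ratio within a library that was chosen after these values were seen and was not tested, ran from 1.78 to 2.17 in controls (median 1.91) and from 1.6 to 1.89 in CBP-ifKOs (median 1.75), with overlap. Slc32a1, the vesicular GABA transporter, was low, at 232 ± 28.6 and 217 ± 28.9 normalised counts, and its difference of -0.10 did not pass (95% interval -0.26 to 0.06, adjusted p = 0.447).

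Of 12 interneuron markers, 4 were lower in CBP-ifKOs and 0 higher, beside 11.5% and 7.76% of all genes tested. The 4 were Calb2 (-0.68), Sst (-0.28), Nxph1 (-0.16) and Reln (-0.12), on the log2 scale. The summed interneuron markers ran from 7282 to 7849 normalised counts in controls and from 6452 to 7505 in CBP-ifKOs, and none was at 0 in a whole group. Of 6 markers of CA1 pyramidal cells, 5 were lower, with a median of -0.39, and their sum ran from 5563 to 6293 in controls and from 3938 to 4932 in CBP-ifKOs, with no overlap. Of 8 markers of dentate granule cells, 3 were lower and 2 higher, with sums of 8238 to 9771 and 8673 to 9535. Of 6 markers of CA3 pyramidal cells 2 were lower, and of 9 astrocyte markers 4 were lower. Of 6 oligodendrocyte and 6 microglia markers 0 were called in DESeq2, with medians of -0.15 and -0.10 and with 4 and 0 at an unadjusted p under 0.05, and of 8 meningeal markers 1 was lower. The part of these markers in the values of Gabra5, Gabra4, Gabrd and Gad1 was not tested.

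Uptake and breakdown showed a single call. Aldh5a1 encodes succinic semialdehyde dehydrogenase, the last enzyme of GABA breakdown. Its normalised counts ran from 1026 to 1105 in controls (median 1054) and from 1087 to 1267 in CBP-ifKOs (median 1154). The ranges overlapped at their ends, and the difference was 0.13 (log2, SE 0.04, DESeq2 adjusted p = 0.00379). Antisense gene 4932702P03Rik shares 796 of its exon bases, with 607 counts over all libraries, and 9330162012Rik, also on the opposite strand, shares 203, with 1300 counts, beside 19661 for Aldh5a1. Abat, the GABA transaminase, had a difference of -0.07 (SE 0.03, adjusted p = 0.0887), Slc6a11, the astrocyte transporter GAT3, -0.05 (95% interval -0.14 to 0.05) and Slc6a13 -0.30 (95% interval -1.01 to 0.41), and none of these 3 passed the test. Abat passed without CBP-ifKO PTZ45 replicate 3 (-0.08, adjusted p = 0.0168), and within PTZ0 Slc6a13 passed without CBP-ifKO PTZ0 replicate 3 (-1.48, adjusted p = 0.00214).

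The scaffold and trafficking genes held the remaining calls. Plcl2 encodes PRIP2, a phospholipase-like protein without catalytic activity that binds GABARAP and the receptor's beta subunits. Its normalised counts were 1830, 1645 and 1687 in Control Sal, 1610, 1753 and 1743 in Control PTZ0, and 1688 and 1915 in Control PTZ45. They were 1294, 1440 and 1453 in CBP-ifKO Sal, 1358, 1346 and 1329 in CBP-ifKO PTZ0, and 1446, 1363 and 1463 in CBP-ifKO PTZ45. The genotypes did not overlap. The difference was -0.33 (log2, SE 0.04, DESeq2 adjusted p = 7.51e-15) over all treatments, -0.31 in Sal (adjusted p = 0.0297), -0.34 in PTZ0 (adjusted p = 5.72e-05) and -0.34 in PTZ45 (adjusted p = 0.0254). The call in Sal was lost without any of the 5 libraries other than CBP-ifKO Sal replicate 3 (adjusted p = 0.115 to 0.272), and that in PTZ45 was lost without any 1 of its 5 libraries (0.0569 to 0.754), with sizes of -0.25 to -0.43. In 2 of those 5 fits a single Control PTZ45 library remained, which is assumed to vary as the CBP-ifKO PTZ45 libraries do. In edgeR, Gabra5 was the only member called in Sal and in PTZ45, so Plcl2 lost both calls there. The related Plcl1 (PRIP1) had a difference of -0.08 (95% interval -0.18 to 0.02, adjusted p = 0.297).

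Gabarapl1 ran from 4119 to 4504 normalised counts in controls (median 4274) and from 3405 to 4330 in CBP-ifKOs (median 3878). The libraries overlapped, and the difference was -0.16 (log2, SE 0.04, DESeq2 adjusted p = 0.00153). In PTZ0 it was -0.17 (adjusted p = 0.0398), a call lost without any of 5 libraries, CBP-ifKO PTZ0 replicate 2 being the exception (0.0608 to 0.34), and held in 1 of 13 alternatives. Its relatives Gabarap (0.02, 95% interval -0.11 to 0.14) and Gabarapl2 (-0.06, 95% interval -0.19 to 0.07) did not pass. Gabarapl1 shares 570 exon bases with the opposite-strand gene 1700101I11Rik, which had 230 counts.

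Gphn encodes gephyrin, the scaffold of inhibitory postsynapses. Its difference was -0.10 (log2, SE 0.04, DESeq2 adjusted p = 0.031), and that of Trak2, an adaptor of mitochondrial and receptor transport along microtubules, was 0.09 (SE 0.03, adjusted p = 0.0315). Both calls were close to the threshold, and leaving out 1 library raised the adjusted p to 0.0503 or more in 8 of 17 cases for Gphn (highest 0.101, without Control PTZ45 replicate 2) and to 0.051 or more in 9 of 17 for Trak2 (highest 0.104, without Control PTZ45 replicate 1). Gphn shares 147 exon bases with the opposite-strand gene Gm48226, which had 1374 counts beside 24139 for Gphn. Nlgn2 (neuroligin 2), Shisa7, an auxiliary subunit of GABA-A receptors, and Trak1 had differences of 0.03, -0.01 and -0.04 and did not pass.

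The genotype calls depended on whether lane was in the fit. In a fit with the sequencing lane as a further term, which can be estimated only if genotype and treatment add without interaction, 0 of the 28 members were called in DESeq2 and 7 had an unadjusted p under 0.05. The same fit called 0.863% of 15643 genes. Gabra5 was then -0.46 on the log2 scale (DESeq2 adjusted p = 0.164), Plcl2 -0.31 (adjusted p = 0.507) and Gad1 -0.19 (adjusted p = 0.662). Other members moved further with the lane term, Gabrg3 from -0.07 to -0.44 (adjusted p = 0.207), Gabra2 from -0.13 to -0.31 (adjusted p = 0.374), Gabrb1 from -0.10 to -0.27 (adjusted p = 0.714) and Slc6a13 from -0.30 to 0.78 (adjusted p = 0.999). All 11 members called without the lane term kept the sign of their difference. Whether lane or a less precise estimate of genotype lay behind the lost calls was not tested.

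**Figure D4:**
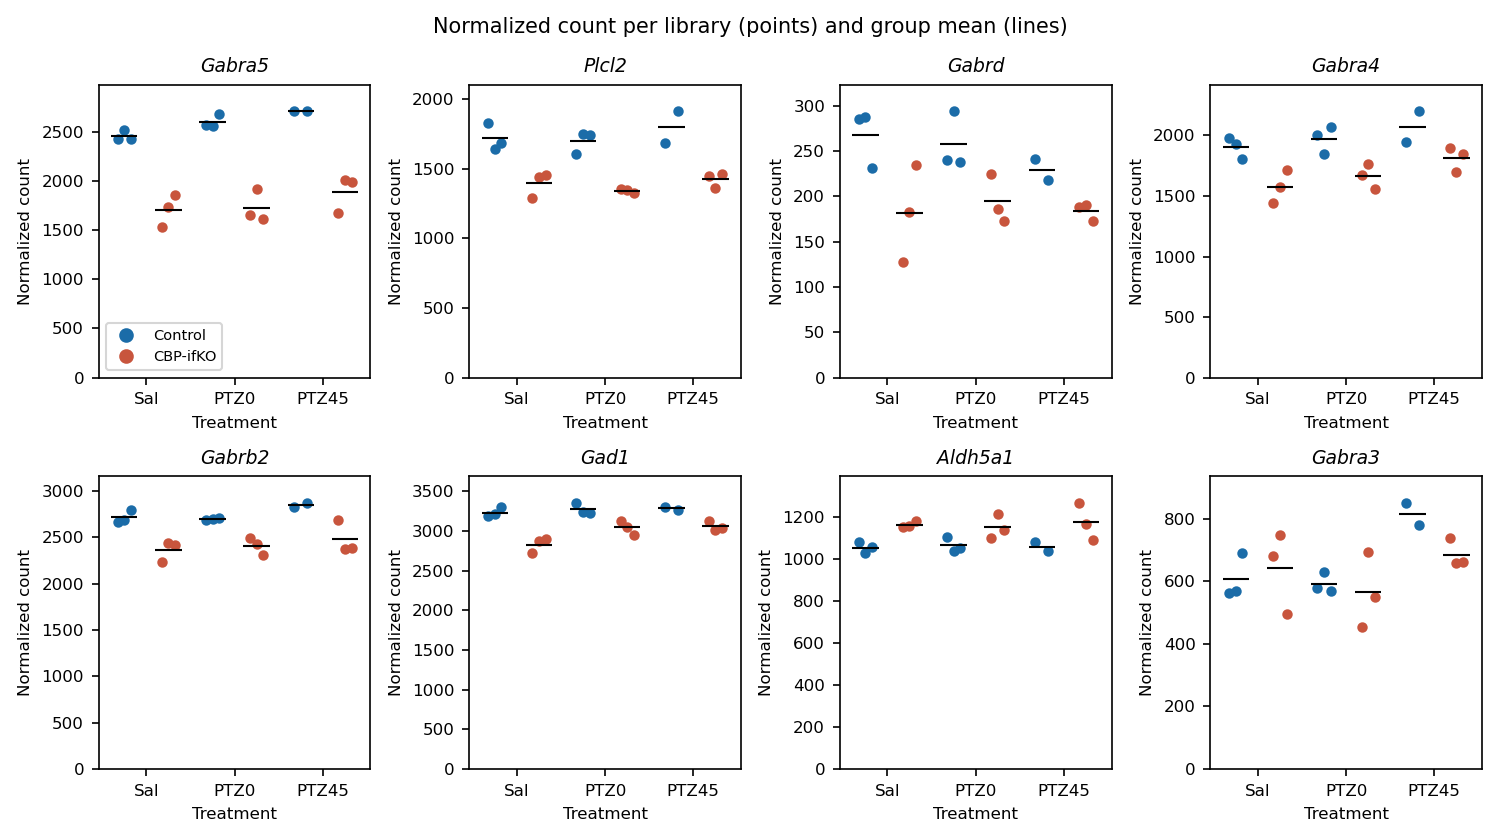
Normalised counts of 8 members in each library (points) with the group mean (lines), by treatment, for Control (blue) and CBP-ifKO (red), on axes that start at 0. Gabra5, Plcl2 and Gad1 do not overlap between genotypes in any treatment, and the 2 Control PTZ45 libraries of Gabra3 lie above the other Control libraries.

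Kindling on its own, compared as PTZ0 against Sal a week after the last kindling dose, gave no call among the members. Over both genotypes, with genotype as a term, 0 of 28 were called in DESeq2, beside 0% of 38090 genes tested, and 1 had an unadjusted p under 0.05. In edgeR 0 were called and 0 had an unadjusted p under 0.05. The 1 was Trak2, at 0.08 (log2, SE 0.04, DESeq2 adjusted p = 1). The median log2 fold change of the members was 0.01, beside 0.00 over all genes tested, and the 95% interval lay within ±0.5 for 27 of 28, the exception being Slc6a13 (0.33, SE 0.44).

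The 5 GABA-A subunits that were lower in CBP-ifKOs did not pass the test after kindling. Gabra5 was at 0.05 (95% interval -0.06 to 0.16), Gabrd at 0.02 (95% interval -0.24 to 0.27) Gabra4 at 0.07 (95% interval -0.04 to 0.17), Gabrb2 at 0.01 (95% interval -0.06 to 0.08) and Gabra2 at 0.08 (95% interval -0.02 to 0.17) on the log2 scale over both genotypes. The value of Gabra2 in CBP-ifKOs, 0.14 (95% interval -0.02 to 0.30), was the highest of the 28 in that comparison. In controls, where both groups were in lane 3, DESeq2 called 0 of 28 members, with 0 at an unadjusted p under 0.05, beside 0.00843% of all genes tested. The edgeR test called 0, with 1 at an unadjusted p under 0.05. Without Control Sal replicate 1, DESeq2 called 0.256% of 7802 genes and no member. In CBP-ifKOs the counts were 0 and 0 with both tools, beside 0.0112% in DESeq2. The values of Gabra5 were 0.08 in controls and 0.02 in CBP-ifKOs, and those of Gad1 0.02 and 0.11. The genotype by kindling interaction called 0 of 28 in either tool, with 0 at an unadjusted p under 0.05 in DESeq2 and 1 in edgeR, beside 0% of 38110 genes.

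**Figure D5:**
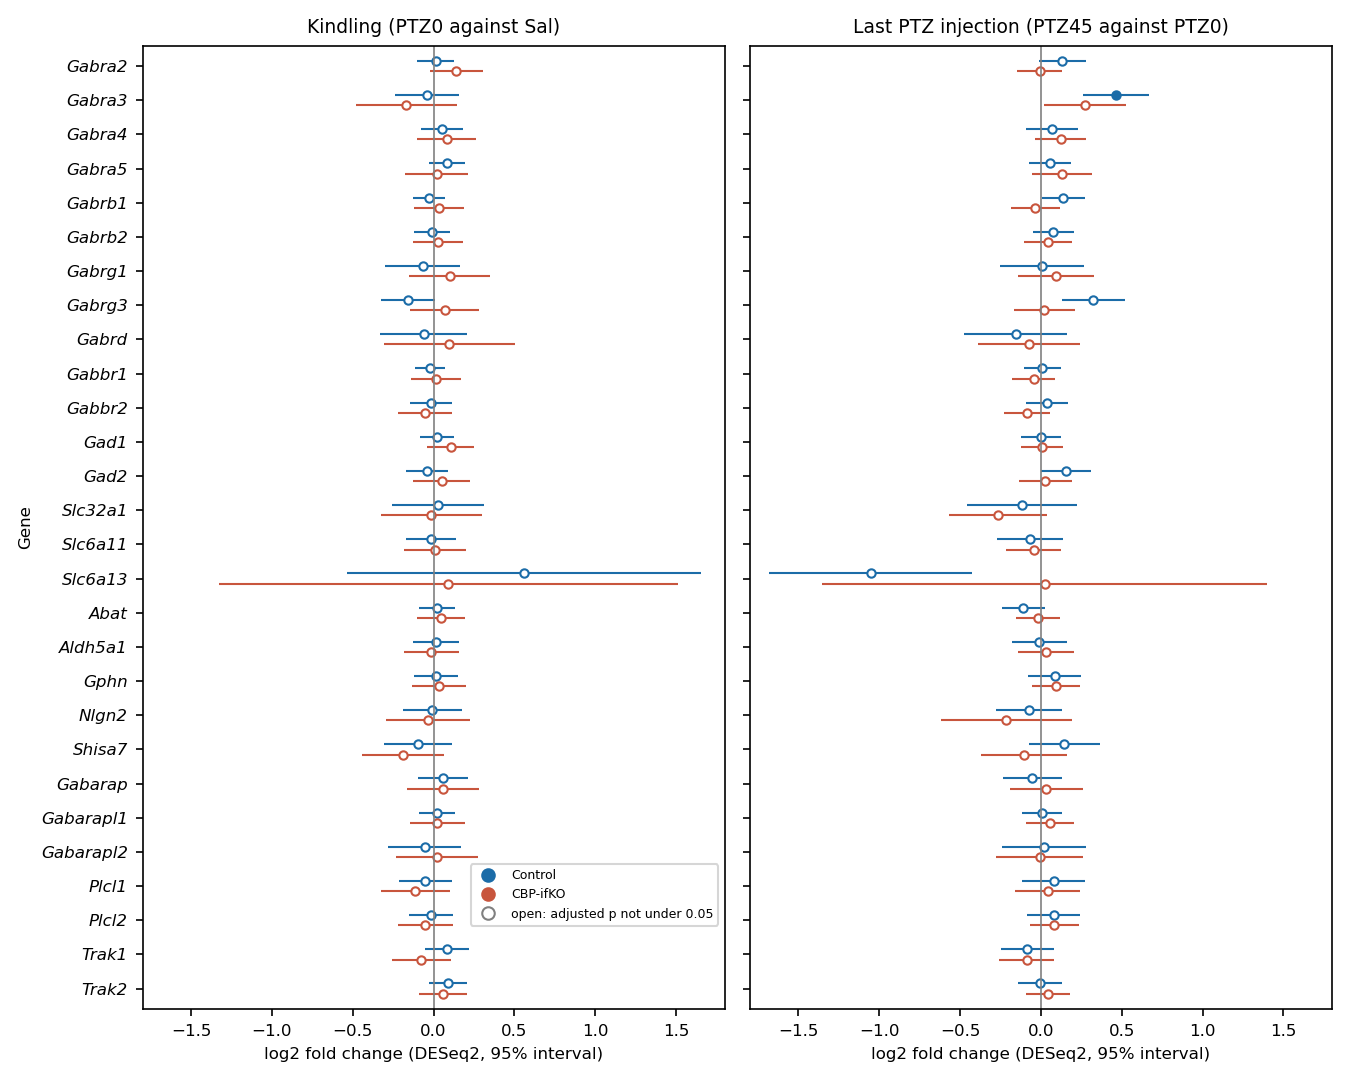
Log2 fold change of each of the 28 genes for kindling (PTZ0 against Sal, left) and for the last PTZ injection (PTZ45 against PTZ0, right) in Control (blue) and CBP-ifKO (red), from DESeq2 with 95% intervals. The only filled point, with an adjusted p under 0.05, is Gabra3 in Control after the last injection.

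The last PTZ injection was compared in mice given the kindling doses, PTZ45 against PTZ0, 45 min after the injection. In controls 1 of the 28 members was called in DESeq2, Gabra3, which was higher, beside 1.25% of all genes tested and 1.18% higher. Its normalised counts were 578, 628 and 568 in Control PTZ0 and 851 and 781 in Control PTZ45, beside 562, 569 and 691 in Control Sal. Both PTZ45 libraries lay above all 6 other control libraries. The change was 0.47 (log2, SE 0.10, 95% interval 0.26 to 0.67, adjusted p = 9.37e-04), or 1.38-fold. It was lost without Control PTZ0 replicate 1 (0.45, adjusted p = 0.139) or Control PTZ0 replicate 3 (0.44, adjusted p = 0.0913) and in 1 fit of all libraries (adjusted p = 0.159), and it rests on 2 libraries of 1 lane against 3 of another.

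In CBP-ifKOs, where both groups were in lane 5, Gabra3 had 454, 693 and 550 normalised counts in PTZ0 and 739, 657 and 660 in PTZ45. The libraries overlapped, and the change was 0.27 (log2, SE 0.13, DESeq2 adjusted p = 1). No member was called in this comparison in DESeq2, where 1 had an unadjusted p under 0.05, or in edgeR, where 2 did, beside 0.0872% of all genes tested in DESeq2. Whether the last injection alone acted differently in the genotypes was not tested. Against Sal, the PTZ45 libraries gave 0.42 for Gabra3 in controls (SE 0.12, DESeq2 adjusted p = 0.0505) and 0.11 in CBP-ifKOs (SE 0.14, adjusted p = 1), and the interaction of genotype and PTZ45 was -0.32 (SE 0.19, 95% interval -0.70 to 0.06, adjusted p = 1). Without Control Sal replicate 3 the value in controls was 0.53 (adjusted p = 0.0149). PTZ45 against Sal and PTZ45 against PTZ0 share their PTZ45 libraries.

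GC content moved with the response to PTZ45. Spearman's rho was taken between the log2 fold change of the last injection and the GC content of each gene's longest annotated transcript. Across 28 members it was -0.65 in controls and -0.65 in CBP-ifKOs, and over all genes with enough counts it was -0.51 and -0.45. These are correlations across genes, which share libraries and are not independent replicates. Gabra3 has 43.1% GC, below the median of 48.5% of the 13173 genes whose mean reached 50 counts. With the GC trend of each library removed, its change in controls was 0.39 (adjusted p = 0.0173).

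Other members had values after the last injection that stayed above the threshold in controls. Gabrg3 was at 0.32 (log2, SE 0.10, DESeq2 adjusted p = 0.0788), with 628, 607 and 641 normalised counts in Control PTZ0 and 770 and 797 in Control PTZ45, and it was called in edgeR (0.32, adjusted p = 0.0289) and in 1 fit of all libraries (adjusted p = 0.0423), the fit in which Gabra3 was not. Slc6a13 was at -1.05 (SE 0.32, adjusted p = 0.0732), with 82, 64 and 121 normalised counts in Control PTZ0 and 47 and 39 in Control PTZ45, and edgeR called it as well (-1.05, adjusted p = 0.043). These counts are low, and the 34 and 42 normalised counts of 2 Control Sal libraries are as low as those of PTZ45. In the same comparison the summed choroid plexus markers ran from 932 to 25250 in Control PTZ0 and from 833 to 964 in Control PTZ45, and the meningeal sums from 1347 to 1479 and from 1105 to 1380. Their part in the value of Slc6a13 was not tested. Gabra5 was at 0.06 in controls and 0.13 in CBP-ifKOs, and Gad1 at 0.00 and 0.01, with adjusted p of 0.93 or more for each in DESeq2.

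The comparison of PTZ45 with Sal called 0 of 28 members in controls (1 at an unadjusted p under 0.05 in DESeq2 and in edgeR), beside 1.17% of all genes. In CBP-ifKOs it called 0 (3 at an unadjusted p under 0.05 in DESeq2 and 4 in edgeR), beside 0.294%. The genotype by PTZ45 interaction called 0 of 28 in DESeq2 and in edgeR, with 0 at an unadjusted p under 0.05 in each, beside 0.329% of 20945 genes. Its standard errors had a median of 0.13 on the log2 scale, the highest being 0.96 for Slc6a13.

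A list of 34 other genes of the GABA pathway was set beside the members. Over all treatments 8 of the 28 with an adjusted p were lower in CBP-ifKOs in DESeq2 and 0 higher, with a median of -0.06, beside 11.5% lower and 7.76% higher of all genes tested. Of the rare GABA-A and rho subunits, 1 of 7 had enough counts for an adjusted p, and it was not called. Among 14 genes of assembly, clustering and trafficking 3 were lower, among them Nsf, the ATPase of vesicle fusion that also binds receptor subunits (-0.28, SE 0.03, adjusted p = 1.06e-22), and Kif5c, a kinesin motor (-0.22, SE 0.03, adjusted p = 4.62e-13). For Nsf, controls had 12798 ± 482 normalised counts (SD, n = 8), and the 9 CBP-ifKO libraries, at 10593 ± 428 (SD), lay below all of them.

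Of 6 GABA-B auxiliary proteins and effector channels 2 were lower, Kctd16 (-0.28, SE 0.04, DESeq2 adjusted p = 8.22e-09), which sets the kinetics of the receptor, and Kcnj9, a GIRK channel subunit (-0.31, SE 0.05, adjusted p = 6.46e-09). The receptor subunits themselves were at -0.04 and -0.06. Of 2 chloride transporters 1 was lower, and of 5 genes of glutamine supply and other GABA uptake 2 were lower, among them Glul, the glutamine synthetase of astrocytes (-0.19, SE 0.04, adjusted p = 7.80e-05). Kindling over both genotypes called 0 of the 34, beside 0% of all genes. After the last injection 2 of 27 with an adjusted p rose in controls, Kctd12 (0.49, SE 0.07, adjusted p = 3.04e-10), chosen for mention after its values were seen as was Kcnj3 (0.25, SE 0.07, adjusted p = 0.048), and 0 of 32 in CBP-ifKOs, where the values were -0.01 and 0.06. Of all genes tested, 1.18% rose in controls, and 0.0872% were called in either direction in CBP-ifKOs. The control groups compared lie in different lanes and Control PTZ45 has 2 libraries, whereas both CBP-ifKO groups lie in lane 5. The interaction of genotype and PTZ45 did not pass for Kctd12 (-0.39, SE 0.13, adjusted p = 0.421) or Kcnj3 (-0.18, adjusted p = 1).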

How the data were processed

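The authors deposited raw counts, whole numbers per gene that were not normalised. Per the labels and the study's methods, single-end reads of 50 bases were trimmed with Trim Galore 0.6.4, aligned with STAR 2.6.1 to GRCm38, kept at a mapping quality above 10 and counted on exons of Ensembl release 99. No label named the sample of 1 of the 18 columns of counts, whose name resembles those of Control PTZ45, the group with 2 libraries, and it stayed unused. Exon lengths were those deposited with the counts. Symbols came from a list of gene names, or from GENCODE M21 where that list gave none. Positions came from GENCODE M21 (99.6% of identifiers found), as did GC content, which was that of the longest annotated transcript of each gene.

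The two-sided Wald test of DESeq2 1.42.0 (R 4.3.3), the test the study names, was run on all genes with at least 1 count of the libraries compared, with Benjamini-Hochberg adjustment over all genes, independent filtering and a call at an adjusted p under 0.05. Pairs of groups were fitted alone, genotype over all treatments with treatment as a term, kindling over both genotypes with genotype as a term, and interactions on 4 groups. Intervals are 95% Wald intervals. Normalised counts in the text come from 1 scaling of 17 libraries, and levels per kb divide them by exon length. The scripts were tested on simulated data.

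Members, lists and tests were chosen with earlier results of these data known. The text names all 28 members, the 6 partner genes with the smallest adjusted p among those called for genotype or kindling (1 of them is not reported here), Crebbp and Fos, and any other gene as chosen after its values were seen, markers of cell types excepted. Alternatives were edgeR 4.0.16, TMM size factors, a minimum of 10 counts in 2 or more libraries, 1 fit of all libraries, the replicate number as a block, a GC correction (loess, span 0.5, mean count 20 or higher), lane as a term, and leaving out each library. The methods name individual mice for saline-treated animals, and where separate animals are not stated the p-values measure only the spread between libraries, which may be technical. Pairs of libraries of a group differed by more than counting noise (chi-square per degree of freedom 2.31 to 18.01). The comparisons share groups and are not independent.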

Additional observations from a re-analysis of the deposited data

How the results depend on the processing

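Of 195 recomputed counts of members called, 165 stayed within 1.5 times the reported count, and no called member reversed. Genotype over all treatments gave 9 to 12 called members in every alternative except the lane term, which gave 0. Genotype in Sal gave 1 with edgeR, 6 with 1 fit of all libraries, 1 with the replicate block, 1 with the block and GC correction, and 1 to 5 when single libraries were left out (5 without CBP-ifKO Sal replicate 3), against 2 reported. The share of all genes called moved as well, from 2.04% to 0.816% with edgeR, 4.35% with 1 fit, 0.895% with the block, 0.686% with the block and GC correction and 5.48% without that library. Genotype in PTZ0 gave 2 with the replicate block and 2 to 4 when single libraries were left out, against 4, with 4.39% of all genes called under the block and 2.42% to 6.89% without a library, against 6.68%. Genotype in PTZ45 gave 1 with edgeR, 1 with the replicate block, 1 with the block and GC correction, and 1 in every fit without a library, against 2, with 2.48%, 0.735%, 0.679% and 1.03% to 2.44% of all genes, against 3.07%. PTZ45 against Sal in controls gave 0 to 1 (1 without Control Sal replicate 3, where 0.866% of all genes were called, against 1.17%). The last injection in controls gave 3 with edgeR, 2 with the filter on low counts, 0 with the replicate block, 0 with the block and GC correction, and 0 to 2 when libraries were left out, against 1, with 1.64%, 1.17%, 0.47%, 0.537% and 0.473% to 7.16% of all genes, against 1.25%. Without either Control PTZ45 library the other is alone in its group and is assumed to vary as the libraries compared with it do, and the 7.16% is the fit without replicate 1. The cause of these differences was not tested. Gabra5 was called in 24 of 25 alternatives over all treatments and in all 13, 13 and 12 within treatments. Of 389 recomputed values of single called members, 315 kept their call and 74 lost it. The replicate numbers showed no pairing of the samples. Same-numbered libraries had correlations of -0.52 to 0.53 over 40 pairs, and 7 of 17 libraries were closest to their own number. The column of Control PTZ45 replicate 2 carries the number 3. This check and the replicate block used the number 2 of its label. The number of libraries, 2 or 3 a group, limits the pairwise comparisons.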
